A study of Bombyx mori with 64 samples.

Results

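Of the 106 miRNA probes on the silkworm array, 37 gave a signal in only a few larval tissues. They were selected on the day 3 larval arrays. A tissue counted as expressing a probe when the mean of the 2 slides of a specimen reached a normalized signal of 1000 in at least 1 sex, and the members are the probes expressed so in 1 to 3 of 10 tissues. Another 35 probes were expressed in 4 to 10 tissues, SW-7 among them with 5, and 34 stayed under 1000 in every tissue. The specimens came from Bombyx mori of the bivoltine strain DaZao, reared on mulberry leaves. Fifth-instar day 3 larvae gave head, malpighian tubule, body wall, hemocytes, fat body, midgut and the anterior and posterior parts of the silk gland from both sexes, ovary of females and testis of males, 18 specimens in all. Body wall and fat body of mixed sexes were also taken at 4 stages (fifth-instar day 7 larva, 0-hour spinning larva, 0-hour prepupa and day 1 pupa), and silk gland and midgut at the first 3 of them, 14 specimens in all. No specimen was treated and none carried a mutation. The title of the fat body pupal specimen reads day 2, its code and source read day 1, and it was taken as day 1. Each specimen is 1 RNA on 2 slides, a and b, which are technical replicates, so n counts specimens and each tissue, sex and stage has n = 1. How many animals went into a specimen is not stated.

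MicroRNAs are short RNAs that are cut from hairpin precursors and guide Argonaute proteins to messenger RNAs, whose translation and stability they lower. Many are made in 1 organ or cell type and are read as signs of it. In a fifth-instar silkworm the silk gland makes the silk proteins and degenerates after spinning, the malpighian tubules excrete, the body wall holds epidermis with its attached muscle, and the larval midgut is replaced and the fat body remodelled when steroid hormone pulses start metamorphosis. The probes carry serial numbers (SW-1 to SW-106). No file or reference table used here pairs these numbers with a miRNA, so the members are given by number, without a miRNA name, a sequence or a role. Some probes on the array are replicates of 1 miRNA and some were designed for miRNAs of other species without a match in the silkworm genome. Which members these are is not known here, so 2 members may report the same miRNA. No marker miRNA could be used to check the tissues. In whole tissue, fewer cells of a type and less miRNA per cell cannot be told apart.

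The arrays differed in their general level, which bears on a fixed threshold. In larvae the median over all 106 probes was 1193 in male and 671 in female body wall, 898 in male and 819.6 in female malpighian tubule, 455 in male and 541 in female head, and 23 to 279 in the other 12 specimens. Control spots named blank read 2377 in male and 2239.8 in female body wall and 1978 in male and 988 in female malpighian tubule, against 7.17 to 159 in the other 14 larval specimens. In metamorphosis the array medians spanned 388 to 2315 and the blank spots 113 to 3856. Slides a and b of a specimen correlated across probes at 0.922 to 0.997 in larvae and 0.925 to 0.991 in metamorphosis. Most larval tissues have an array date of their own, and body wall and malpighian tubule share theirs with metamorphosis arrays, so tissue and array date cannot be told apart in the larvae.

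The body wall and the malpighian tubule accounted for most of the restricted signals. Of the 37 members, 32 reached 1000 in body wall, 16 in malpighian tubule and 11 in head. The ovary had 2, the testis, the midgut and each part of the silk gland had 1, and none reached it in the fat body or the hemocytes. A single tissue held 18 members, of which 14 were in the body wall, 2 in the head (SW-93 and SW-13) and 2 in the malpighian tubule (SW-30 and SW-94). Another 10 were expressed in 2 tissues and 9 in 3. The commonest combinations were body wall with malpighian tubule (7 members), head with body wall and malpighian tubule (4) and head with body wall (3). By the tissue of the highest mean, 23 members belonged to the body wall, 8 to the head, 5 to the malpighian tubule and 1 to the ovary. Since these larval signals chose the members, they are given as a description without a test.

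**Figure D1:**
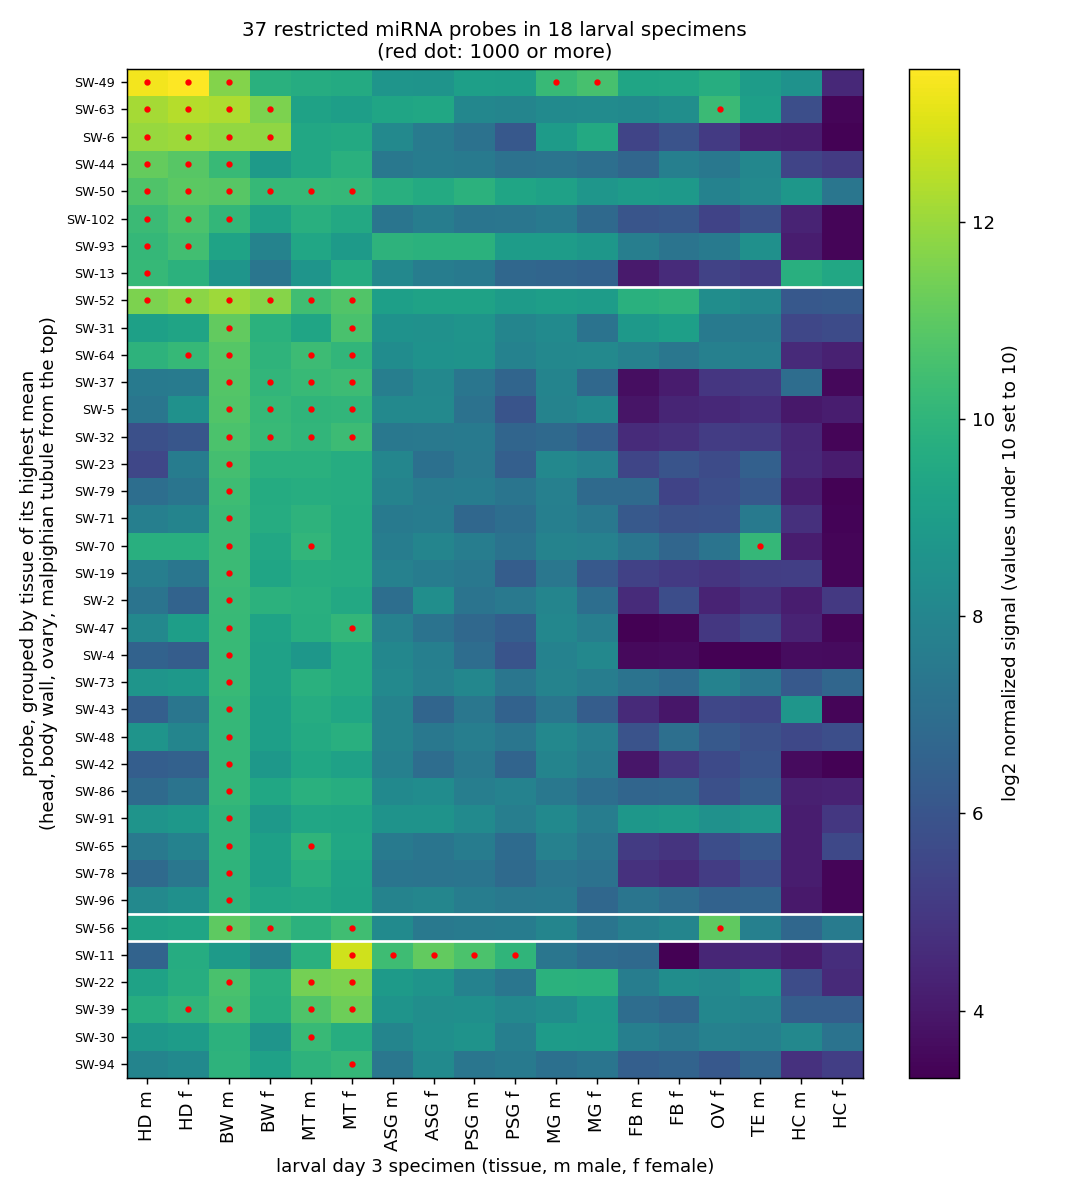
Normalized signal of the 37 restricted probes (rows, grouped by the tissue of the highest mean) in the 18 larval day 3 specimens (columns, left to right head HD, body wall BW, malpighian tubule MT, anterior ASG and posterior PSG silk gland, midgut MG, fat body FB, ovary OV, testis TE and hemocytes HC, m male and f female), on a log2 colour scale with values under 10 set to 10. Red dots mark 1000 or more, and in the male body wall column 32 members carry one.

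The 8 probes of the head group included the strongest restricted signals. SW-49 read 10613 in males and 12005 in females in the head, against 3226 in males and 904 in females in the body wall and 1182 in males and 1543 in females in the midgut. Both head specimens were thus above every other specimen, and the highest mean was 3.72 times that of the second tissue, the largest such ratio in the group. SW-63 was shared with the body wall, at 4556 in males and 5501 in females in the head, 5083 in males and 2937 in females in the body wall and 1262 in the ovary. SW-6 was nearly level in both tissues, at 4071 in males and 4228 in females in the head and 3752 in males and 3742 in females in the body wall, and no other larval specimen went above 747. SW-44 read 2219.8 in males and 1879 in females in the head and 1173 in males and 483 in females in the body wall. SW-50 was the least restricted of these 8, at 1722 in males and 2019 in females in the head, 1914 in males and 1168 in females in the body wall and 1156 in males and 1129.7 in females in the malpighian tubule. SW-102 read 1243 in males and 1599.8 in females in the head and 1079.5 in males and 585 in females in the body wall.

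Only 2 members reached 1000 in the head alone. SW-93 read 1120.0 in males and 1417 in females in the head, and the male anterior silk gland followed at 986, so its restriction rests on a narrow gap. SW-13 read 1145 in males and 940.0 in females in the head, with 1 of the sexes above the threshold. Hemocytes were next for SW-13, at 876 in males and 693 in females, and SW-13 was the highest member in both hemocyte specimens. All 8 head members lay above the blank spots of their highest specimen. The rule fixed this, since those spots read 139 in the male and 159 in the female head, under the threshold. The members were 7.62 to 71.4 times the median of the 34 unexpressed probes there (median 13.4). Those probes lay under 1000 by the same rule, so the ratio is a description and no support for the selection.

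SW-11 dominated the malpighian tubule group and was the only member expressed in the silk glands. It read 898 in males and 7189.8 in females in the malpighian tubule, 1323 in males and 2162 in females in the anterior silk gland and 1603 in males and 1030.2 in females in the posterior silk gland. The male over female ratio in the tubule was 0.125 on the mean and 0.114 and 0.137 on slides a and b, while the array medians of these specimens stood at 1.10 male over female. In the other tissues SW-11 ranged up to 796 in the female head, against 95.3 in the male head. SW-22 read 2700.5 in males and 2962 in females in the malpighian tubule and 1587 in males and 882 in females in the body wall, with 918 in males and 911 in females in the midgut. SW-39 read 1727 in males and 2499.5 in females in the malpighian tubule, 1478 in males and 835 in females in the body wall and 838 in males and 1043 in females in the head. The tubule-only members were close to the threshold, SW-30 at 1189.7 in males and 831 in females and SW-94 at 988 in males and 1139 in females in the malpighian tubule, and both came next in male body wall (963 and 991). Except for SW-30, the tubule members exceeded the blank spots of their highest specimen. That specimen was the female tubule, where the blank spots read 988, under the threshold, so the rule fixed this.

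Each gonad stood out for 1 or 2 members. SW-56 read 2127 in the ovary, against 219 in the testis, and 2070.0 in males and 1382 in females in the body wall and 962 in males and 1359.8 in females in the malpighian tubule. The ovary and the male body wall were within 1.03-fold of each other, so the highest tissue of SW-56 is not settled. SW-63 was the other member expressed in the ovary (1262, with 555 in the testis). SW-70 showed the opposite gonad order, with 1134 in the testis and 155 in the ovary, beside 1258 in males and 707 in females in the body wall. Each gonad is 1 specimen, so these differences have no replicate check.

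The 23 members of the body wall group were weak and alike. Their highest means ran from 1003.5 to 4194 with a median of 1205, and 21 of 23 lay under 2000. SW-52 led with 4194 in males and 3302 in females in the body wall, 2943 in males and 3492 in females in the head and 1373 in males and 1764 in females in the malpighian tubule. SW-31 followed with 2202 in males and 921 in females in the body wall and 642 in males and 1581 in females in the malpighian tubule. The sexes of SW-31 thus stood in opposite order in this pair of tissues, as did those of SW-52. SW-64 read 1855 in males and 998 in females and SW-37 1777 in males and 1077 in females in the body wall. Head signal did not accompany all of them. SW-64 had 990.3 in males and 1172 in females in the head, whereas SW-37 had 180.5 in males and 189.8 in females and SW-32 56 in males and 67.5 in females there. The malpighian tubule was the second tissue for 21 of the 23, and the highest mean exceeded that of the second tissue by 1.02-fold to 1.67-fold (median 1.38).

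The 14 members expressed in the body wall alone all reached the threshold in the male specimen and not in the female one. The 8 highest were SW-23 (1444 in males and 903 in females), SW-79 (1342 in males and 786 in females), SW-71 (1264 in males and 798 in females), SW-19 (1245 in males and 644 in females), SW-2 (1205 in males and 955 in females), SW-4 (1187 in males and 584 in females), SW-73 (1177 in males and 578 in females) and SW-43 (1139 in males and 543 in females). The other 6 read 1003.5 to 1129.8 in males. Over the 32 members expressed in the body wall, the male was higher in all 32 and the female stayed under 1000 in 24. Their male over female ratio had a median of 1.79, and that over all 106 probes was 1.88 with 96 higher in the male. After each array was scaled to a common median the ratio of the members was 1.02, with 17 of 32 higher in the male. In the head, the 11 members expressed there had a median ratio of 0.845, and in the malpighian tubule the 16 had 0.89.

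In the male body wall the members of this group sat near the middle of the array. Their median of 1205 there compares with 1193 for all 106 probes and 2377 for the blank spots, and 22 of the 23 members were below the blank spots of their highest specimen. SW-52 was the exception. The members of the group were 1.96 to 8.18 times the median of the 34 unexpressed probes (median 2.35). Those probes lay under 1000 by the rule, so the members had to exceed them. The part of the array level in their selection was not tested, but without the male body wall specimen 26 probes satisfied the rule, of which 1 was highest in the body wall, and after scaling to a common median 30 satisfied it, of which 2 were highest in the body wall and 14 were members before. When a probe also had to exceed the blank spots, 25 probes satisfied the rule, 8 of them in the body wall group, 11 in the head group and 4 in the malpighian tubule group.

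**Figure D2:**
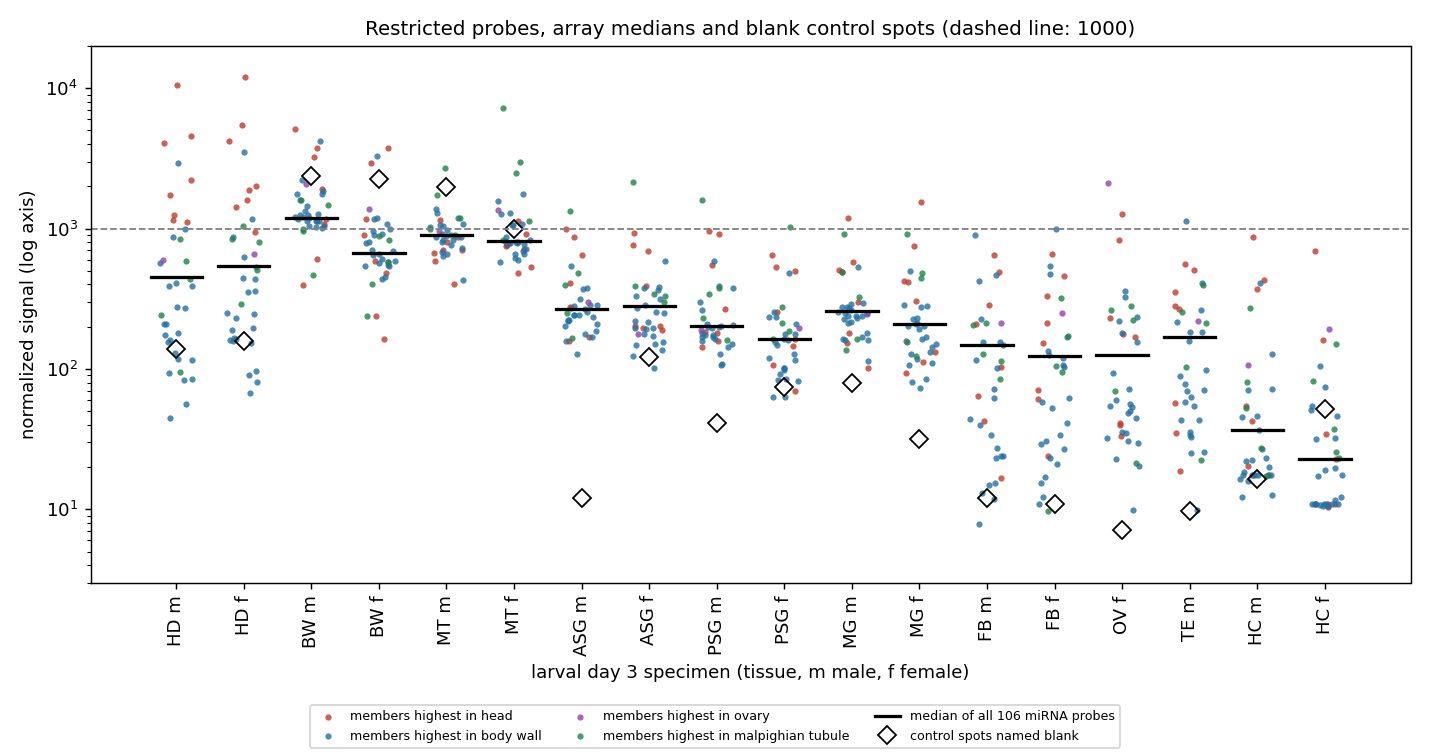
Normalized signal on a log axis of the 37 members (dots, coloured by the tissue of the highest mean) in each larval day 3 specimen (tissue codes as in the heatmap), with the median of all 106 probes (bars) and the control spots named blank (diamonds). The diamonds of both body wall specimens lie at 2377 (male) and 2240 (female), above 1000 and above most members, while in the head the diamonds lie at 139 (male) and 159 (female).

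The threshold cut through a continuum. The 3 members just inside it were SW-96 (1003.5), SW-78 (1019) and SW-65 (1039.7), each in male body wall. The 3 probes just outside were SW-105 at 992.5 in the malpighian tubule, SW-62 at 960.3 in the body wall and SW-60 at 932.5 in the head. Members expressed in 3 tissues had at most 378 to 985.5 outside those 3, and SW-52 in the fat body came closest. The probes expressed in 4 tissues had 1129 to 1639 in the weakest of these. Below the threshold the members differed in how low they went. In hemocytes 29 of 37 members were under 100 in both sexes, and 22 were so in the ovary, 20 in the testis, 17 in the fat body and 3 in the head. None was under 100 in both sexes in the midgut or either part of the silk gland. The general level of these arrays differed too, and its part in these counts was not tested. The median over all 106 probes was 36.8 in male and 23.0 in female hemocytes, 125 in the ovary and 168 in the testis. It was 148 in male and 123 in female fat body, and 163 to 541 in the head, the midgut and both parts of the silk gland. In male hemocytes a median of 1.5% of the pixels of a member's spots exceeded the local background by 2 SD, against 95.5% in male body wall.

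The rule did not use values of the metamorphosis specimens, so the members were tested there. The rule itself was chosen with earlier results of these data known, so these tests are not fully independent of it. Each tissue was set against the mean of the other 3 with stage as a factor, in limma on log2 signals with values under 100 set to 100, and p-values were adjusted over all 106 probes by Benjamini-Hochberg. A call is an adjusted p under 0.05. The p-values rest on the spread between specimens of different stages, since no tissue and stage was sampled more than once. Most members reached 1000 in several tissues in metamorphosis. At some stage 36 members reached 1000 in the silk gland, 35 in the midgut, 27 in the body wall and 22 in the fat body, and 2 members (SW-50 and SW-52) did so in all 14 specimens. Many probes outside the members reached it too. In the day 7 silk gland 36 members and 91 of all 106 probes did so, with blank spots at 3401. In the day 7 midgut it was 35 members and 84 probes, with blank spots at 3748. The prepupal body wall had 25 members and 63 probes, and the spinning fat body 18 and 53. Of the 34 probes unexpressed in larvae, 20 reached 1000 in the day 7 silk gland and 14 in the day 7 midgut. The larval and metamorphosis arrays were scaled in different ways, so their levels cannot be compared directly.

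In the body wall 2 members were called higher (5.41% of the members, against 7.55% of all 106 probes) and 14 lower (37.8%, against 24.5%). In the silk gland 8 were higher (21.6%, against 17.0%) and 1 lower (2.7%, against 8.49%). In the midgut 1 was higher (2.7%, against 9.43%) and 1 lower (2.7%, against 3.77%), and in the fat body none was higher (against 3.77%, with 1 member at an unadjusted p under 0.05) and 3 were lower (8.11%, against 14.2%). The F test over the 4 tissues called 8 members (21.6%, against 31.1%). The tissues also differed in array level, and its part in these counts was not tested. The median array level was lower in the body wall and the fat body by log2 differences of -0.85 and -0.58 and higher in the silk gland and the midgut by 0.91 and 0.52. The median difference over all 106 probes was -0.57 in the body wall and 0.59 in the silk gland, and centring each array on its median changed it to 0.28 and -0.32. With centred arrays 5 members were higher (22.6% of all probes) and 2 lower (5.66%) in the body wall, 2 higher (1.89%) and 4 lower (23.6%) in the silk gland, 1 higher (10.4%) and 2 lower (5.66%) in the midgut, and 1 higher (10.4%) and 2 lower (7.55%) in the fat body. The counts over all 37 members moved when single specimens were left out. The 14 members lower in the body wall became 2 without the day 7, spinning or pupal body wall specimen or the pupal fat body, 3 without the day 7 midgut or the prepupal silk gland or fat body, 4 without the spinning fat body or midgut, 5 without the day 7 silk gland, 8 without the day 7 fat body and 18 without the prepupal body wall. The 8 members higher in the silk gland became 1 without any 1 of the 3 silk gland specimens, the spinning or pupal body wall, the prepupal fat body or the spinning or prepupal midgut, 3 without the day 7 or pupal fat body, 17 without the prepupal body wall and 18 without the day 7 midgut.

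**Figure D3:**
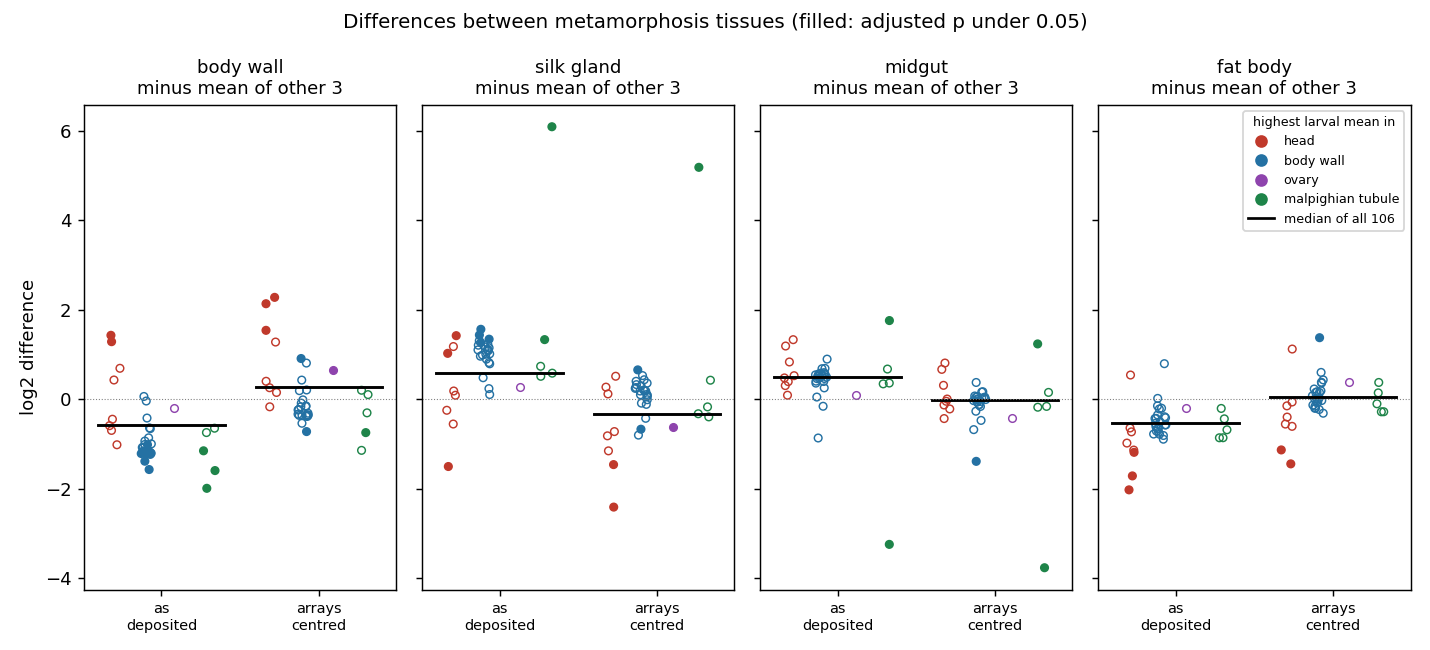
Log2 difference of the 37 members between 1 metamorphosis tissue and the mean of the other 3, with the signals as deposited and with each array centred on its median, coloured by the larval tissue of the highest mean. Filled points have an adjusted p under 0.05 and black bars give the median of all 106 probes, and SW-11 stands alone at 6.08 in the silk gland (5.18 centred).

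The body wall group was not higher in the body wall during metamorphosis. None of its 23 members was called higher there (against 7.55% of all 106 probes), 11 were called lower (47.8%, against 24.5%), and the median difference was -1.09, beside -0.57 over all probes. The tissue of the highest mean was the silk gland for 21 of 23 members and the body wall for none, against 51 and 14 of all 106 probes. With centred arrays these counts were 13 and 4 of the 23 members, against 25 and 44 of all 106 probes. SW-42 read 193, 393, 576 and 380.5 in the body wall from the day 7 larva to the day 1 pupa, against 2267, 1273 and 1465 in the silk gland, 1579.8, 730.5 and 894 in the midgut and 405, 987, 536 and 626 in the fat body, a difference of -1.57 ± 0.45 (SE, adjusted p = 0.0285) for the body wall. The silk gland and body wall specimens did not overlap. The pupal body wall value of SW-42 averages slides that disagreed, at 723 on slide a and 37.7 on slide b. Over the alternatives its body wall difference ran from -1.92 to -0.30. SW-5 differed by -1.38 ± 0.44 (SE, adjusted p = 0.0377) and SW-86 by -1.22 ± 0.35 (SE, adjusted p = 0.0285). The other 8 were SW-65, SW-47, SW-32, SW-79, SW-71, SW-23, SW-37 and SW-2, with differences of -1.01 to -1.21.

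In the silk gland 4 of the 23 were called higher (17.4%, close to the 17.0% of all 106 probes), with a median of 1.09 over the group, and the largest differences were SW-5 at 1.56 ± 0.48 (SE, adjusted p = 0.0358), SW-42 at 1.44 ± 0.50 (SE, adjusted p = 0.0491) and SW-23 at 1.34 ± 0.45 (SE, adjusted p = 0.0455). SW-5 read 3004, 2060.2 and 3457 in the silk gland, against 219.7, 643, 1376 and 717 in body wall, 1994, 1898 and 1199.5 in the midgut and 751, 858, 901 and 843 in the fat body. The lowest silk gland value of SW-5 exceeded the highest of the other 3 tissues. With centred arrays the median of the group was -0.24 in the body wall, where 1 was called higher (SW-52) and 1 lower (SW-42), and 0.19 in the silk gland, where 1 was higher (SW-5) and 1 lower. The body wall group moved closely with the arrays. The SD of a member's log2 signal around the array median over the 14 specimens was 0.19 to 1.01 with a median of 0.30, against a median of 0.77 over all 106 probes. Only the body wall and the fat body had a pupal specimen, and stage was a factor. Leaving out either of these 2 specimens thus gave the same differences. The silk gland differences of SW-5, SW-42 and SW-23 then stayed at 1.56, 1.44 and 1.34. The calls of the group moved when single specimens were left out, some of them without a change in the difference. Its 11 lower calls in the body wall became 0 without the day 7, spinning or pupal body wall specimen or the pupal fat body, 1 without the day 7 midgut or the prepupal silk gland or fat body, 2 without the day 7 silk gland or the spinning fat body or midgut and 5 without the day 7 fat body. Its 4 higher calls in the silk gland became 0 without any 1 of the 3 silk gland specimens, the spinning or pupal body wall, the prepupal fat body or the spinning or prepupal midgut, 1 without the day 7 or pupal fat body, 7 without the day 7 body wall or the spinning fat body, 12 without the prepupal body wall and 13 without the day 7 midgut.

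SW-31 of the body wall group had its highest mean in the fat body. It read 3644, 3114, 2156 and 3112 in the fat body, against 1958, 2246, 1751 and 1720.0 in body wall, 2557, 2514 and 1364 in the silk gland and 1854, 830.5 and 1256 in the midgut. SW-31 was the highest member in the fat body at day 7, spinning and pupa, and in the prepupa SW-52 was higher at 2463.5. Its fat body difference of 0.80 ± 0.30 (SE, adjusted p = 0.0852) did not pass, and passed with centred arrays at 1.38 (adjusted p = 0.00901). In day 3 larvae the fat body signal of SW-31 had been 464 in males and 543 in females.

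Among the head group, SW-49 was higher in the body wall in metamorphosis. It read 2356, 4508, 8388 and 6038 in the body wall from the day 7 larva to the pupa, against 3121, 3198 and 3540.3 in the midgut, 1992, 1183 and 1807 in the silk gland and 603, 922, 1197 and 1151 in the fat body. The body wall was above the other tissues at spinning, prepupa and pupa, whereas at day 7 the midgut was above it. The body wall difference was 1.43 ± 0.32 (SE, adjusted p = 0.0059) and 2.28 with centred arrays, and it was 1.74 and 1.78 within the array dates that hold the body wall and other tissues. Those dates hold 2 and 1 body wall specimens, and the values within them have no stage term. The fat body was lower by a log2 difference of -1.71 ± 0.32 (SE, adjusted p = 0.00254), and all 4 fat body values lay below every body wall and midgut value and overlapped with the silk gland at spinning. SW-63 had the same pair of larval tissues, head and body wall, and read 2570.5, 2794, 4584 and 2956 in the body wall, against 2281, 808 and 1266 in the silk gland, 1530.2, 1614 and 1572 in the midgut and 273, 1195, 1521 and 1464 in the fat body. All 4 body wall values exceeded the values of the other tissues. Its body wall difference was 1.29 ± 0.47 (SE, adjusted p = 0.0496), at the edge of the threshold, and 2.13 with centred arrays (adjusted p = 0.0028). The call on SW-63 held without the day 7 silk gland or the day 7 fat body and was lost when any 1 of the other 12 specimens was left out (difference 1.14 to 1.47).

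The remaining head members split by tissue. SW-93 was lower in the fat body, at 147, 500.3, 439.8 and 508, against 268, 937, 924 and 1307 in body wall, 2168, 1793 and 1572 in the silk gland and 1976, 1888 and 1114 in the midgut, with a fat body difference of -2.02 ± 0.45 (SE, adjusted p = 0.00626). It was called higher in the silk gland at 1.42 ± 0.50 (SE, adjusted p = 0.0491), which with centred arrays became 0.51 (adjusted p = 0.122). SW-6 was lower in the fat body by -1.18 ± 0.38 (SE, adjusted p = 0.0417), and with centred arrays this was -0.60 (adjusted p = 0.199). SW-13 was the only member called lower in the silk gland, at 256, 180.3 and 118, against 399, 781, 405 and 724 in body wall, 424, 704 and 595 in the midgut and 158, 958, 645 and 1068 in the fat body. The difference was -1.50 ± 0.47 (SE, adjusted p = 0.0358) and -2.41 with centred arrays. On the mean of the slides all 3 silk gland values lay below every other value except that of the day 7 fat body. The slides of the day 7 silk gland disagreed, at 505 on slide a and 8.33 on slide b. On slide a it lay above the day 7 body wall (293). Over the alternatives the difference ran from -2.41 to -0.006, and SW-13 reached 1000 in only 1 of the 14 specimens. SW-50 was called higher in the silk gland (1.03 ± 0.36 (SE, adjusted p = 0.0491)), with 4174, 2536 and 4523 there. With centred arrays its difference was 0.12 (adjusted p = 0.606). SW-44 had 2452, 3813 and 2128 in the midgut and no call in any tissue.

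SW-11 showed the largest tissue difference of all members. It read 17863, 22131 and 7718 in the silk gland at day 7, spinning and prepupa, against 299, 371, 132 and 221 in body wall, 699, 404, 201 and 555 in the fat body and 60.5, 96.2 and 139 in the midgut. The lowest silk gland value was 11 times the highest value elsewhere, which was in the day 7 fat body. On both slides of each silk gland specimen the signal lay at 6776 or more. The silk gland difference was 6.08 ± 0.46 (SE, adjusted p = 2.32e-07) and 5.18 with centred arrays. Its size depends on the floor of 100 set under low values, and it was 6.30 with a floor of 10 and 3.85 with a floor of 1000. The midgut was lower at -3.24 ± 0.46 (SE, adjusted p = 0.000273) and the body wall at -1.99 ± 0.42 (SE, adjusted p = 0.00388). In the midgut SW-11 lay under the floor of 100 on at least 1 slide of each specimen, and the midgut difference was -3.83 with a floor of 10 and -1.28 with a floor of 1000. Both the midgut and the body wall contrast have the silk gland among the tissues they are set against. The body wall call was lost with centred arrays (-1.14, adjusted p = 0.096). The silk gland was also one of the larval tissues of SW-11, as anterior and posterior parts. The malpighian tubule was not sampled in metamorphosis.

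SW-22 was higher in the midgut. It read 6170.0, 5273 and 3938 in the midgut, against 3128, 1726 and 3493 in the silk gland, 1268, 1516, 1498 and 1652 in the fat body and 409, 1152, 1468 and 1044 in the body wall, and every midgut value exceeded every other value. Its midgut difference was 1.76 ± 0.40 (SE, adjusted p = 0.00638) and 1.24 with centred arrays (adjusted p = 0.000706). The body wall difference was -1.59 ± 0.37 (SE, adjusted p = 0.00686) and -0.74 with centred arrays (adjusted p = 0.00522). Without the day 7 midgut the midgut difference was 1.44 (adjusted p = 0.0955), and without the spinning midgut it was 1.70 (adjusted p = 0.0586). SW-30 read 2214, 4346 and 6982 in the silk gland, against 2537, 4669 and 1994 in the midgut, 1163, 1545, 1417 and 1325 in the fat body and 379.5, 1620.5, 1992 and 1518 in the body wall. It was called higher in the silk gland (1.33 ± 0.42 (SE, adjusted p = 0.0358)) and lower in the body wall (-1.15 ± 0.38 (SE, adjusted p = 0.0424)). Both calls were lost with centred arrays, at 0.43 (adjusted p = 0.312) and -0.30 (adjusted p = 0.406). SW-39 and SW-94 had no call, with differences of -0.74 to 0.74 over the 4 contrasts. SW-56, the ovary member, had none either, at 950.5, 1517, 3550.5 and 2660.0 in body wall and 2875, 1528 and 2563 in silk gland.

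**Figure D4:**
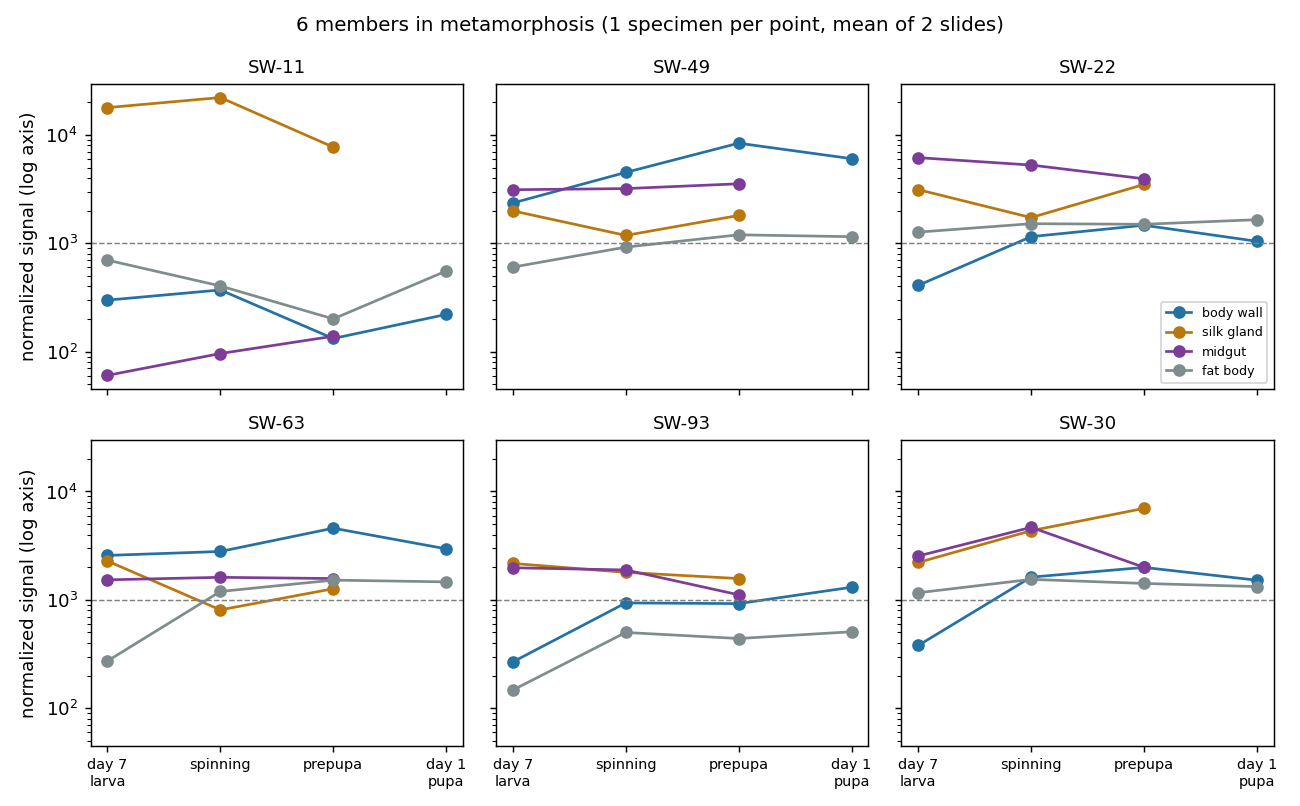
Normalized signal on a log axis of 6 members by stage in the 4 tissues, 1 specimen per point (mean of 2 slides), with the threshold of 1000 dashed. SW-11 lies at 7718 to 22131 in the silk gland and at 60.5 to 699 elsewhere, SW-49 and SW-63 run highest in the body wall from spinning on, and SW-22 is highest in the midgut.

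No member changed over the stages past the threshold. In simulated data with a common slope of 0.5 per step on the log2 scale, 42.9% of the changed probes were called, so changes of that size can be missed. The common slope per stage step with tissue as a factor called none of the 37, against 1.89% of all probes rising and 0.943% falling, with 2 members at an unadjusted p under 0.05. They were SW-49 at 0.30 ± 0.13 (SE) and SW-73 at 0.39 ± 0.17 per step on the log2 scale, both with an adjusted p of 0.309. Slopes within each tissue called 0% of all probes in either direction. At an unadjusted p under 0.05, some members had a positive slope in the body wall, and SW-63 and SW-13 had one in the fat body. Outside the members, SW-27, SW-88 and SW-92 were among the probes with such slopes in the fat body (0.67 to 0.89). Probes outside the members also had such slopes in the body wall, among them SW-17, SW-41, SW-53 and SW-76 at 1.02 to 1.19. The steepest member there was SW-70 at 0.78, so the rise was not particular to the members. The median slope in the body wall was 0.47 over the members and 0.43 over all 106 probes, and the array median there was 388 at day 7, 798 at spinning, 1323 in the prepupa and 941 in the pupa. SW-30 had the largest positive slope in the silk gland (0.83 ± 0.43, adjusted p = 0.754). The test of slope differences between tissues called no probe (0%), with 1 member at an unadjusted p under 0.05.

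Array date was shared between tissues in metamorphosis and allowed a comparison within dates. Of the 3 array dates, 2 held several tissues, and the day 7 body wall was the only specimen of its own date. Within these 2 dates SW-11 was higher in the silk gland by 6.46 and 6.63 on the log2 scale, SW-22 was higher in the midgut by 1.49 and 1.38, and SW-63 was higher in the body wall by 1.47 and 1.49. These are differences of tissue means without a stage term, and the stages differed between the sides. On the first date the silk gland and the midgut had 1 specimen each, and on the second the body wall had 1. They are a description without a test. For the body wall group the median body wall difference within dates was -0.70 and -0.83, and the silk gland difference 0.64 and 0.82. With array date as a random block the consensus correlation was 0.577, and 18 members were higher in the silk gland, among 32 of all 106 probes. The call on SW-63 in the body wall was lost with the date as a random block (adjusted p = 0.0585) and as a fixed term (adjusted p = 0.167), and so was that on SW-6 in the fat body (adjusted p = 0.136 and 0.24). With the date as a fixed term SW-42 in the body wall and SW-42, SW-93 and SW-13 in the silk gland lost theirs as well (adjusted p = 0.0598 to 0.106).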

How the data were processed

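Small RNA labelled with Cy3 was hybridized to a one-colour oligonucleotide array on which each of 106 miRNA probes is printed as 3 spots, with 64 arrays for 32 specimens. Before deposition the authors read spot intensity with LuxScan 3.0 software, subtracted the local background, set negative signals to 10, exchanged outlier spots and scaled every array with 1 factor. Per the methods the factor rests on U6 and 5S rRNA for the larval arrays and on a global median for the metamorphosis arrays, where the results section names a global mean. The deposited intensities are linear, and the value of a probe is the mean of its spots, identical in the per-array and the series tables (largest difference 0.0). The deposited percent of pixels above the local background plus 2 SD at 532 nm was used as a description only. A fixed threshold of 1000 on such values moves with the array factor.

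Slides a and b were averaged. For the tests, signals under 100 were set to 100, taken to log2 and modelled in R 4.3.3 by limma 3.58.1 (eBayes after lmFit, variance trend on, Benjamini-Hochberg over 106 probes, no filter on low values, so that all 37 members were tested). Tables and plots were made with Python 3.11.15, numpy 2.4.6, pandas 2.3.3 and matplotlib 3.10.9. The scripts were tested on simulated data, in 50 draws with 15 of 106 probes changed. A log2 difference of 1 in the silk gland was called in 16.3% of the changed and 0.198% of the unchanged probes. A common slope of 0.5 per step was called in 42.9% and 0.505% of them. Alternatives were the threshold, single slides, array scaling, the floor, a filter on low values, the variance trend, array date as a block and the removal of each specimen. Array date is the date in an array's name, and what it dates is not stated. The number of arrays limits the precision.

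The members, the rule and the lists were chosen with earlier results of these data known. Probes named are the members expressed in 1 tissue (up to 8 in each group), the highest members of each group, the largest called differences of each contrast, the highest and the lowest members of each metamorphosis tissue, and the probes next to the threshold. Other members named with values (SW-44, SW-73, SW-86 among them) or shown as examples were added after their values were seen. Lists by miRNA name were not run, since the probes have no names here. The files with log2 values, filters and outlier steps of the same arrays were not used.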

Additional observations from a re-analysis of the deposited data

Results flagged for a closer look

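The control spots named blank carried signal on the arrays of 2 larval tissues. They are not miRNA probes and enter no comparison between specimens, and serve beside the members as a level of control spots. They read 2377 in the male and 2240 in the female body wall and 1977.5 in the male and 988 in the female malpighian tubule, whereas the other 14 larval specimens had 7.17 to 159 and a second set of control spots, named Blank, had at most 19.9 in these 4 specimens. In metamorphosis the spots named blank reached 1000 in 11 of 14 specimens. What these spots hold is not stated, and their part in the members' signals was not tested.

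SW-31 was among the members whose sexes stood in opposite order in the body wall and the malpighian tubule. The male over female ratio of SW-31 was 2.39 for body wall and 0.406 for malpighian tubule, and both slides of each specimen gave the same direction (2.23 and 2.59 for body wall, 0.348 and 0.466 for tubule). After scaling each array to a common median the ratios of SW-31 were 1.41 and 0.394. The opposite order was not particular to SW-31. SW-39, SW-47, SW-52 and SW-56 were among the others with it, while SW-50, SW-64, SW-65 and SW-70 were higher in the male in both tissues. Of the members expressed in each tissue, the male was higher in all 32 in body wall and in 5 of 16 in tubule. After scaling it was higher in 17 of 32 and 4 of 16. With 1 specimen per sex and tissue these differences were not tested. No group held the 4 or more specimens that a search for single outlying values needs.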

How the results depend on the processing

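The number of members moved from 37 to 23 with a threshold of 2000, of which 4 were highest in the body wall, and to 24 when both slides had to reach 1000, of which 8 were in the body wall. The body wall group of 23 became 8 with slide b alone, 8 when a probe also had to exceed the blank spots, 2 with arrays scaled to a common median and 39 with net signals before the factor. Leaving out 1 specimen gave 26 to 39 members, with 1 to 25 in the body wall, and both low values came without the male body wall. With scaling to a common median the median male over female ratio was 1.03 in the head and 1.02 in the body wall, and slide a alone gave 0.928 in the head.

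In metamorphosis, counts of members called changed as follows, with the count over all probes tested in brackets. The cause was not tested. With centred arrays 5 were higher (24) and 2 lower (6) in the body wall and 2 higher (2) and 4 lower (25) in the silk gland. In the midgut 2 were lower (6) and in the fat body 1 was higher (11). With slide a alone 1 was higher (5) in the body wall, 1 higher (5) and 0 lower (6) in the silk gland, and 4 passed the F test (24). With slide b alone 1 was higher (7) and 6 lower (12) in the body wall, 3 were higher (12) in the silk gland and 1 (5) in the fat body. With net signals 0 were higher (3) and 1 lower (6) in the body wall and 1 higher (1) and 0 lower (3) in the silk gland. In the midgut 0 were higher (7), and 2 passed the F test (20). With array date as a random block 1 was higher (7) in the body wall, 18 higher (32) and 2 lower (14) in the silk gland and 2 lower (6) in the midgut. With the date as a fixed term 1 was higher (6) and 5 lower (11) in the body wall and 14 higher (22) in the silk gland. In that fit 2 were lower (6) in the midgut and 4 passed the F test (27). A floor of 1000 gave 5 lower (9) in the body wall, 23 higher (34) and 0 lower (9) in the silk gland and 2 lower (5) in the midgut. It also gave 1 higher (4) and 12 lower (26) in the fat body, 24 in the F test (47) and 2 with a falling slope in the silk gland (12). A floor of 10 gave 5 higher (13) in the silk gland and 13 in the F test (43). Without the variance trend 18 were higher (31) in the silk gland and 20 passed the F test (46). Among the 83 probes that reached 1000 in 3 or more specimens, 17 members were higher (26) and 0 lower (8) in the silk gland and 2 higher (11) in the midgut. There 24 passed the F test (51) and 1 had a rising slope in the body wall (5).

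Leaving out 1 specimen gave 1 to 2 higher and 2 to 18 lower in the body wall, 1 to 18 higher and 0 to 1 lower in the silk gland, 0 to 2 higher and 1 to 2 lower in the midgut, 0 to 1 higher and 2 to 4 lower in the fat body, and 4 to 18 in the F test. No member was called for a common slope or for a difference between slopes under any setting run. Of 431 values for 18 named differences under the alternatives, 294 kept their call, 137 lost it and none changed direction. SW-11 in the silk gland and midgut and SW-49 and SW-93 in the fat body kept it in all 24. No paired analysis was possible because the letters a and b mark 2 technical slides of 1 RNA, which were averaged before the fit, and no replicate is shared between groups.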
